A study of Mus musculus with 12 samples.

Results

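The genes described here are 9 transcription factors of the anterior epiblast and the neural plate: Otx2, Pou3f1, Hesx1, Lhx2, Pax6, Sox1, Six3, Zic2 and Zic5. They were taken as a list by name and not by a rule on measured values. Earlier results of these data were known when the list was chosen. Every probe set that the platform table gives to a single listed gene was read, which gave 19 of 45037 probe sets and 9 of 18193 genes. The samples were embryoid bodies of strain 129, floating aggregates of mouse embryonic stem cells that differentiate once LIF is withdrawn. They came from wild-type (WT), Smad4-null and Trim33 knock-down (Trim33-KD) cells. At day 2.5 each genotype received activin at 50 ng/ml ("ac") or the receptor inhibitor SB431542 ("SB", given in the labels as 10 mM) for 2 h. There were 12 Affymetrix arrays, 2 for each of the 6 groups.

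Smad4 is the shared partner of receptor-activated Smad proteins, and Trim33 is a chromatin-associated E3 ligase that associates with activated Smad2/3. No group was left untreated, so a difference between activin and SB431542 can come from either agent. Nothing in the labels tells if the replicates come from separate cultures, and p-values may then measure technical spread. The labels also leave out how Trim33 was knocked down and whether each line is a single clone, so genotype and line cannot be told apart. The Trim33 signal lay between 9.85 and 10.35 on the Trim33-KD arrays and between 11.58 and 11.95 on the WT arrays (log2). The Smad4 signal lay between 12.10 and 12.24 on the Smad4-null arrays and between 11.90 and 12.03 on the WT arrays, so it does not check that label. All 6 markers fixed for embryonic stem cells and epiblast had mean signals above 6, and their summed signal was 15.4 to 15.6 on every array. That sum follows the brightest markers, and the tests of single markers are given further below. Signals were spread more narrowly on WT-SB replicate 2 (SD 3.07) and Smad4-null-ac replicate 1 (SD 3.12) than on the other arrays (3.24 to 3.39).

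In the mouse embryo, nodal signalling holds the epiblast ready for mesoderm and endoderm, and neural fate is favoured where that signal is low. Antagonists secreted from the anterior visceral endoderm keep the anterior epiblast low in nodal. Otx2 and Pou3f1 are expressed widely in the epiblast before gastrulation, whereas Hesx1, Lhx2, Pax6, Sox1 and Six3 mark the neural plate that follows. Zic2 and Zic5 are zinc finger factors of the epiblast and the neural plate.

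Promoter sequences of the members were read from RefSeq (assembly GRCm38.p6) as windows from 250 bases before to 50 bases after an annotated start. The table held 12 windows for 7 members. The windows of members described below are printed to show which pathway motifs lie near their starts, with the window that holds most motif matches where a gene has several, and the first of these where 2 are level. Capitals mark matches, on either strand, to CAGAC (the Smad-binding element), AATNCACA (Foxh1), TAATCC (Otx and Gsc), TAATTA (LIM homeodomain), ATGCAAAT (the POU octamer), ACAAAG (Sox) or TATAAA (the TATA box). TAATTA reads the same on both strands and was counted once. All sequences run 5′ to 3′ on the gene's own strand.
Otx2: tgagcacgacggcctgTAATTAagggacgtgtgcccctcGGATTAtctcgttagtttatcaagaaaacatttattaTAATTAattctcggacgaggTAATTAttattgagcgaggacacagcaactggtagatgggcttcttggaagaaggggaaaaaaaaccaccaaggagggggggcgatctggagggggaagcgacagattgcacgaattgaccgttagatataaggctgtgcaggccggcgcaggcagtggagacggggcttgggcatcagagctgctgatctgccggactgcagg
Hesx1: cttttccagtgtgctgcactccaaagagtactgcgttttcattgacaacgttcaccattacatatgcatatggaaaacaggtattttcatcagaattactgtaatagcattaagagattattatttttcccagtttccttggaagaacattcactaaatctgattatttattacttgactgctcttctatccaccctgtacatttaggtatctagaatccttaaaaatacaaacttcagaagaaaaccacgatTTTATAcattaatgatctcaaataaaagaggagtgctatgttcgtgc
Lhx2: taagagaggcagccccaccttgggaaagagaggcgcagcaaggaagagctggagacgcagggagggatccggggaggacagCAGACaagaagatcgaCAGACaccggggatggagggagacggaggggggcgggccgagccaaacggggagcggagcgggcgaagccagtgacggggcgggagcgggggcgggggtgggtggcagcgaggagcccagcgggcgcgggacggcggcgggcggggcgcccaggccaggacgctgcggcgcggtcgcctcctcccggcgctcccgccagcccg
Pax6: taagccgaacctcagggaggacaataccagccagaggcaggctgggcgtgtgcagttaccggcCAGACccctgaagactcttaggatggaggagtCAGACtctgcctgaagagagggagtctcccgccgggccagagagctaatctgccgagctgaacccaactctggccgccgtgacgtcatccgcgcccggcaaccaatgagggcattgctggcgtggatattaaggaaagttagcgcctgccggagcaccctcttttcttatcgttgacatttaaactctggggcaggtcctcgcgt
Sox1: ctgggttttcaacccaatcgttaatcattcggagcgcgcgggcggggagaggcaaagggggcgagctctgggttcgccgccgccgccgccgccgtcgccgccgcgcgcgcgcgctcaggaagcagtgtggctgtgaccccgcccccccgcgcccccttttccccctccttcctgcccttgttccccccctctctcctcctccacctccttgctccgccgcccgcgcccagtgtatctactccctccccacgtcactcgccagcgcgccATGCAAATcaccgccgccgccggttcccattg
Six3: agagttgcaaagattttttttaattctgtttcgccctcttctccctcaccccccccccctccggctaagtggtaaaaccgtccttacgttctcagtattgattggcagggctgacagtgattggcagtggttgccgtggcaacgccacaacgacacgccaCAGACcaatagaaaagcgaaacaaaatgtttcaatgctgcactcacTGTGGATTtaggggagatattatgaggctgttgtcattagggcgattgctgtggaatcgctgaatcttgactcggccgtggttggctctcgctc
Zic5: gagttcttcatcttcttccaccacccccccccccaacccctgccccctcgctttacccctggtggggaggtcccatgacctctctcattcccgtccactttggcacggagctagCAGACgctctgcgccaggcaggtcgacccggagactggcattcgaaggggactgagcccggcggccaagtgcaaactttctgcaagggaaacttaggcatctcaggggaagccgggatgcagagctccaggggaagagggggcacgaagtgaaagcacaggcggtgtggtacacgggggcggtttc

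The Otx2 window (chr14:48665060-48665359, minus strand, the third of 4) held 3 copies of TAATTA and a TAATCC on the opposite strand, the letters that the Otx2 protein itself binds. Among all 32851 windows of this length, 5.29% held TAATTA and 7.06% held TAATCC. Such shares count windows with at least 1 match. They are over windows not picked for matches, unlike the printed windows of Otx2, Lhx2 and Pax6. Lhx2 (chr2:38339031-38339330, plus strand) and Pax6 (chr2:105668646-105668945, plus strand) each held 2 copies of CAGAC, and Zic5 (chr14:122465609-122465908, minus strand) held 1. That motif was in 49.6% of all windows. The second Pax6 window also held 2 matches, CAGAC on the opposite strand and ACAAAG, which was in 18.7% of windows. Six3 (chr17:85620584-85620883, plus strand) held 1 CAGAC, and the Foxh1 letters AATNCACA on the opposite strand, present in 3.60% of windows. The Sox1 window (chr8:12395269-12395568, plus strand) held an octamer, ATGCAAAT, 19 bases after the start, a motif present in 1.74% of windows. Hesx1 (chr14:27000112-27000411, plus strand) held only TATAAA on the opposite strand, found in 13.6% of windows. The windows differed in base composition, with 33.7% GC in Hesx1, 51.0% in Otx2, 70.7% in Sox1 and 74.7% in Lhx2, against a median of 52.7% over all windows. A match describes letters in the window and not an occupied site.

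In Smad4-null embryoid bodies 4 of the 9 factors rose above WT over both treatments, namely Pax6, Pou3f1, Hesx1 and Lhx2. Zic2 fell, and Otx2, Sox1, Six3 and Zic5 did not pass the test. A gene was called where limma's adjusted p over all genes was under 0.05, and by that rule 18.4% of all genes were called in this comparison. The median difference of the 9 factors was 0.23, against -0.03 over all genes. In bulk samples, fewer cells of a type and less RNA per cell cannot be told apart. All differences are on the log2 scale, and a gene is represented by its probe set with the highest mean signal.

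**Figure D1:**
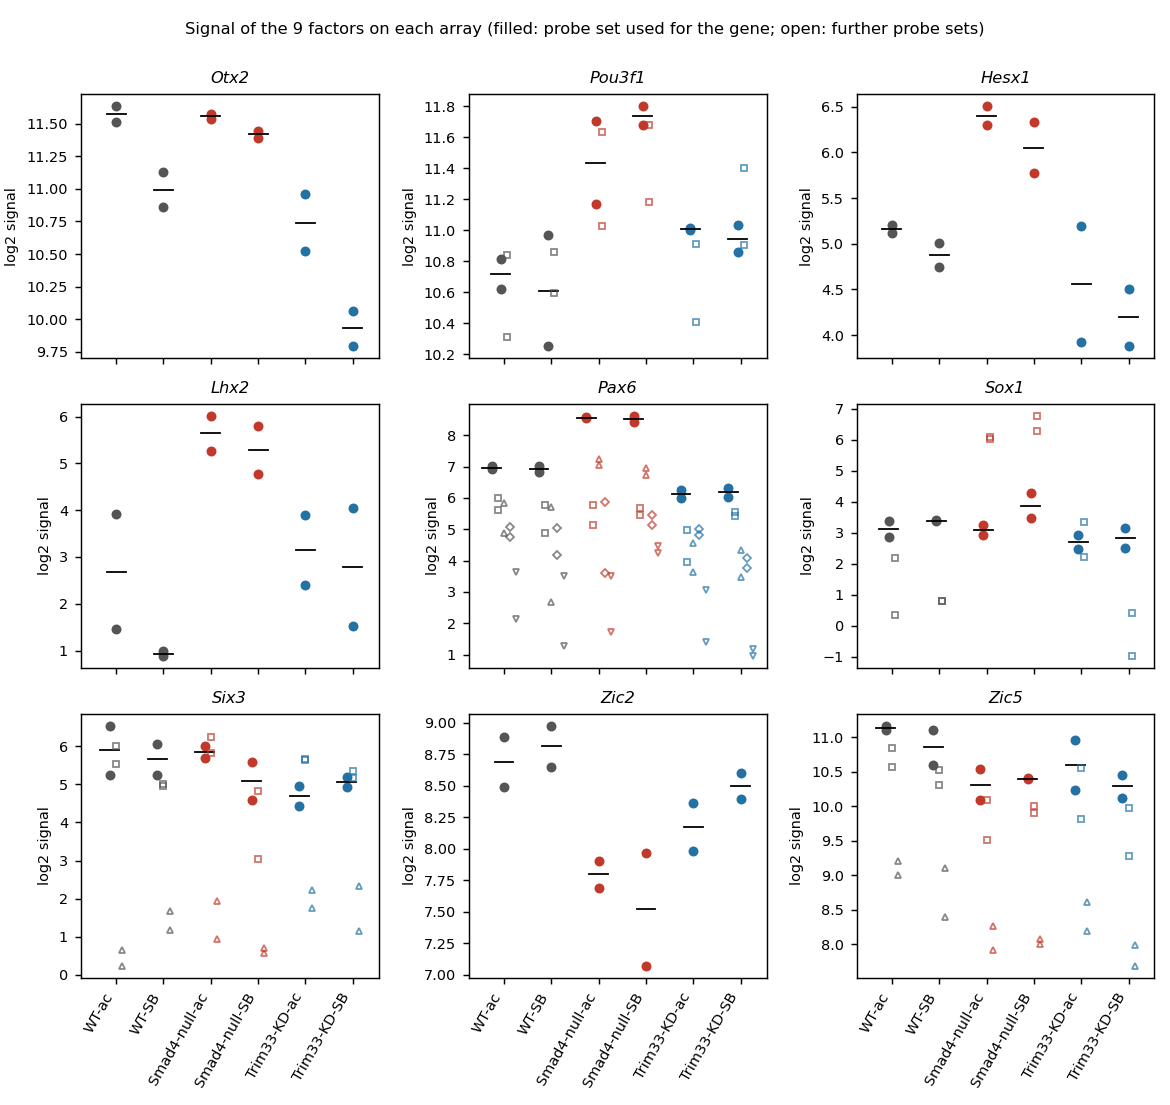
Log2 signal (y axis) of every probe set of the 9 factors in the 6 groups (x axis), 2 arrays per group. Filled points are the probe set used for the gene, bars their means and open symbols further probe sets. In the filled points the 4 Smad4-null arrays sit above all others for Pou3f1, Hesx1, Lhx2 and Pax6, and the Trim33-KD arrays are lowest for Pax6.

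Otx2 is a homeobox factor required for the head and the anterior neural plate. Its log2 signal in WT was 11.63 and 11.52 with activin and 11.13 and 10.86 with SB431542. In Smad4-null arrays it was 11.58, 11.53, 11.39 and 11.45, and in Trim33-KD arrays it was 10.96 and 10.52 with activin and 9.79 and 10.07 with SB431542. Trim33-KD arrays lay below the WT arrays of the same treatment. The Smad4-null arrays lay within the range of the WT arrays of both treatments. Over both treatments the Smad4-null difference of 0.20 (SE 0.13, n = 4 per genotype) did not pass the test (adjusted p = 0.337, 95% interval -0.09 to 0.50). With SB431542 the Smad4-null arrays lay above the WT arrays. That difference of 0.42 (95% interval 0.009 to 0.84, n = 2 per group) did not pass either (adjusted p = 0.197).

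Otx2 was lower in Trim33-KD than in WT by a log2 difference of -0.95 (SE 0.13, adjusted p = 0.0324, n = 4 per genotype), which left 51.7% of the WT signal. Otx2 and Pax6 were the 2 factors called in this comparison, both lower, where 0.649% of all genes were called. Across treatments 1 Trim33-KD array with activin (10.96) exceeded the lowest WT array with SB431542 (10.86). The call is narrow: it was lost in 11 of 12 fits without a single array, and kept only without Trim33-KD-ac replicate 1. It was also lost with only the groups compared in the fit (adjusted p = 0.144) and without both arrays of narrow spread (adjusted p = 0.111), while the difference stayed between -1.06 and -0.84 over all settings. When the test was limited to the brighter 50% of genes, where 8.67% were called, the adjusted p for Otx2 was 0.00104. Against Smad4-null, Otx2 was lower in Trim33-KD by -1.15 (SE 0.13, adjusted p = 0.00113), and all arrays of these genotypes were apart.

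Pou3f1, a POU factor (Oct6) that promotes the step from epiblast to neural fate, had a signal of 10.62 and 10.81 in WT with activin and 10.97 and 10.25 with SB431542. In Smad4-null arrays it was 11.17, 11.70, 11.80 and 11.68, all above every WT array. The difference was 0.92 (SE 0.18, adjusted p = 0.0124, n = 4 per genotype), or 1.90-fold. The call held in all 23 settings, with values from 0.74 to 1.10. The other probe set for Pou3f1 rose by 0.73 with no overlap of arrays, but its adjusted p over all probe sets was 0.116, where 8.84% of probe sets were called. In Trim33-KD, the arrays read 11.00, 11.02, 10.86 and 11.03 for Pou3f1, with a mean between those of the other genotypes and an overlap with WT. These values differed from WT by 0.31 (adjusted p = 0.426) and from Smad4-null by -0.61 (adjusted p = 0.058), and neither passed the test. Within the upper 50% of genes the second difference did pass (adjusted p = 0.0103).

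Hesx1 encodes a paired-like homeobox repressor of the forebrain and pituitary. Its signal was 5.11 and 5.21 in WT with activin and 4.74 and 5.0 with SB431542, and 6.30, 6.51, 5.77 and 6.33 in Smad4-null. The 4 Smad4-null arrays were above all others, and the Trim33-KD arrays spread widely, at 5.19, 3.92, 4.51 and 3.88. Hesx1 was higher in Smad4-null by 1.21 (SE 0.29, adjusted p = 0.0274, n = 4 per genotype). All its WT signals lie under 6, and the call was lost in 7 of 12 fits without a single array: without any 1 of the 4 WT arrays, without either Smad4-null-ac array and without Smad4-null-SB replicate 2. When signals under 64 (6 on the log2 scale) were set to 64, the difference shrank to 0.28 and the call was lost (adjusted p = 0.0517), as it was without both arrays of narrow spread (adjusted p = 0.106). Hesx1 was lower in Trim33-KD than in Smad4-null by -1.85 (SE 0.29, adjusted p = 0.00511), which became -0.28 with that floor, no longer called (adjusted p = 0.053). The Trim33-KD difference from WT was -0.64 (adjusted p = 0.323).

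Lhx2, a LIM homeobox factor of the eye field and forebrain, scattered widely between replicates. Its WT signal was 3.91 and 1.46 with activin and 0.88 and 0.99 with SB431542, and its Smad4-null signal was 6.01, 5.27, 5.80 and 4.77. All Smad4-null arrays were above all WT and Trim33-KD arrays, the latter at 3.90, 2.39, 4.04 and 1.53. The difference between Smad4-null and WT was 3.66 (SE 0.74, adjusted p = 0.0135, n = 4 per genotype). Since 11 of these 12 signals lie under 6, a fold change has little meaning, and with the floor at 64 the difference was 0.00. The call was also lost without Smad4-null-SB replicate 1 and without both arrays of narrow spread (adjusted p = 0.0994). The Trim33-KD difference from WT was 1.15 (SE 0.74, adjusted p = 0.467), and that from Smad4-null was -2.50 (adjusted p = 0.0558).

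Pax6, a paired-box factor of the eye and forebrain, separated the 3 genotypes. Its signal was 7.02, 6.91, 6.83 and 7.02 in WT, 8.55, 8.57, 8.62 and 8.41 in Smad4-null, and 6.24, 5.99, 6.33 and 6.02 in Trim33-KD. No arrays of different genotypes overlapped. Pax6 rose 3.01-fold in Smad4-null (1.59, SE 0.11, adjusted p = 0.000212, n = 4 per genotype) and was called in all 22 settings. In Trim33-KD it was lower than WT by -0.80 (SE 0.11, adjusted p = 0.0353, n = 4 per genotype), at 57.5% of the WT signal. That call was lost in 11 of 12 fits without a single array, and kept only without Trim33-KD-ac replicate 1. It was also lost with only the groups compared (adjusted p = 0.144) and without both arrays of narrow spread (adjusted p = 0.145). The difference between Trim33-KD and Smad4-null was -2.39 (adjusted p = 6.42e-05).

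Pax6 has 4 further, dimmer probe sets on the array, and they did not all follow. The probe set 1452526_a_at was 2.22 higher in Smad4-null than in WT (adjusted p = 0.0755), while 1456342_at differed by -0.06, 1437816_at by 0.25 and 1425960_s_at by 0.85, none of which passed. In Trim33-KD all 5 probe sets had negative differences from WT, from -0.98 to -0.34. With the mean of the 5 probe sets, Pax6 remained called in Smad4-null at 0.97 (adjusted p = 0.0208), but not in Trim33-KD (-0.70, adjusted p = 0.2).

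Sox1, a SoxB1 factor and an early marker of the neural plate, had 2 probe sets that disagreed. The probe set with the higher mean, 1422205_at, was flat: 3.37, 2.87, 3.37 and 3.42 in WT and 2.94, 3.25, 3.48 and 4.27 in Smad4-null, a difference of 0.23 (SE 0.24, adjusted p = 0.59). The other, 1438729_at, read 2.19, 0.35, 0.81 and 0.78 in WT, against 6.03, 6.09, 6.77 and 6.28 in Smad4-null. That probe set rose by 5.26 in Smad4-null (SE 0.49, adjusted p = 0.00143 over all probe sets), and no array overlapped. In Trim33-KD it read 2.22, 3.35, -0.98 and 0.41, lower than Smad4-null by -5.04 (adjusted p = 0.00162), where 9.47% of probe sets were called. With the mean of both probe sets Sox1 was called higher in Smad4-null by 2.74 (adjusted p = 0.00216). Because the WT signals of both probe sets lie far below 6, the values give a direction for 1438729_at and no usable fold.

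Six3, a forebrain and eye homeobox factor, was not called in any of the genotype comparisons. The probe set 1427523_at ranged from 5.25 to 6.54 in WT, from 4.58 to 6.00 in Smad4-null and from 4.44 to 5.20 in Trim33-KD. The Trim33-KD arrays lay below the WT arrays, and the difference was -0.90 (SE 0.36, adjusted p = 0.268, n = 4 per genotype). The probe set 1426638_at did not share that direction, with a difference of 0.08, and the third, 1426637_a_at, differed by 0.92.

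**Figure D2:**
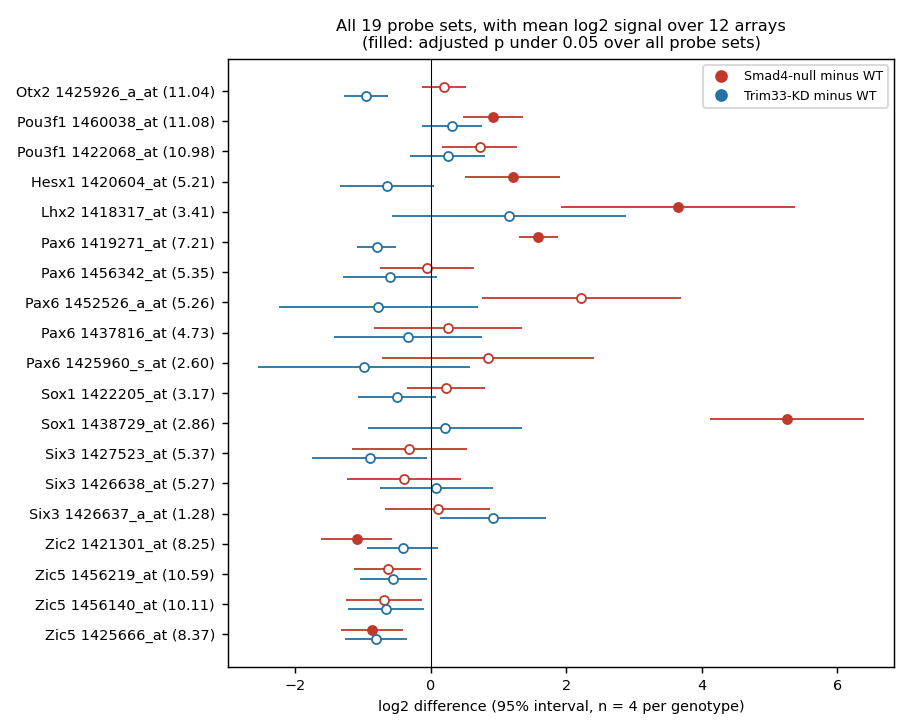
Log2 difference from WT (x axis, 95% interval, n = 4 per genotype) of all 19 probe sets, each with its mean log2 signal in brackets. Filled points pass limma's adjusted p of 0.05 over all probe sets. The Sox1 probe sets stand at 0.23 and 5.26 in Smad4-null, while the 3 Zic5 probe sets lie below 0 in both lines.

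Zic2, mutated in holoprosencephaly, fell in Smad4-null. Its signal was 8.49, 8.89, 8.65 and 8.97 in WT and 7.90, 7.69, 7.07 and 7.97 in Smad4-null. The groups did not overlap, and the difference was -1.09 (SE 0.22, adjusted p = 0.0127, n = 4 per genotype), which left 46.8% of the WT signal. Without both arrays of narrow spread the adjusted p was 0.0813. Trim33-KD arrays stood at 8.37, 7.98, 8.40 and 8.60, a difference from WT of -0.41 that did not pass (adjusted p = 0.379).

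Zic5, the gene beside Zic2, was 11.10, 11.16, 11.11 and 10.59 in WT and 10.08, 10.54, 10.40 and 10.39 in Smad4-null. The groups did not overlap, and the difference of -0.64 (SE 0.20, n = 4 per genotype) did not pass (adjusted p = 0.0714). Among the upper 50% of genes, where 37.2% were called, it did (adjusted p = 0.0137). Of its 3 probe sets 1425666_at was called over all probe sets, with a difference of -0.86 (adjusted p = 0.0369). In Trim33-KD the 3 probe sets differed from WT by -0.81, -0.66 and -0.55, and none passed. Over all probe sets 0.113% were called between Trim33-KD and WT, and none of the 19 was among them.

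**Figure D3:**
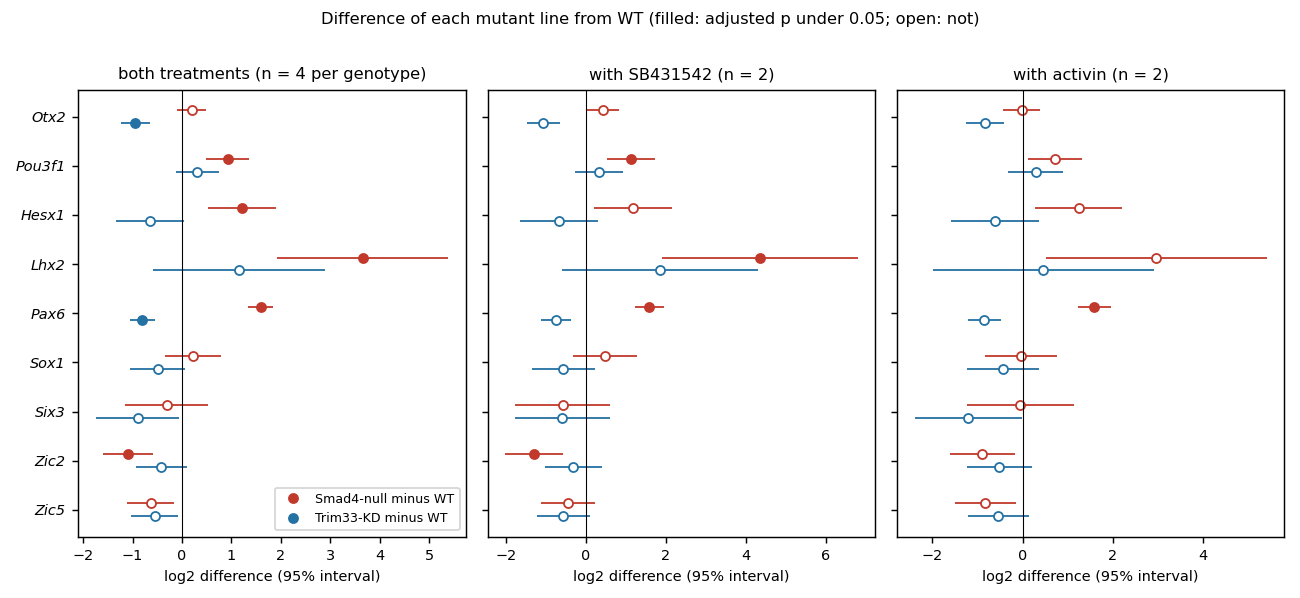
Log2 difference of each line from WT (x axis, 95% interval) for the 9 factors, over both treatments (n = 4 per genotype) and within each treatment (n = 2). Filled points pass limma's adjusted p of 0.05. Pax6 stands at 1.59 in Smad4-null in all 3 panels, and Otx2 lies between -1.07 and -0.84 in Trim33-KD.

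Between Trim33-KD and Smad4-null, 3 of the 9 factors were called, Otx2, Hesx1 and Pax6, all lower in Trim33-KD, where 18.4% of all genes were called. The median difference was -0.72, against -0.03 over all genes. This comparison shares its arrays with both comparisons against WT. Among the upper 50% of genes, where 35.9% were called, the 4 factors bright enough to enter were Otx2, Pou3f1, Zic2 and Zic5, and the first 3 of these passed. Zic2 was there higher in Trim33-KD than in Smad4-null by 0.68 (adjusted p = 0.0142). Over all genes the adjusted p of that difference was 0.0723.

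The same differences were read within each treatment, with 2 arrays per group. With SB431542, 4 factors were called between Smad4-null and WT, where 9.10% of genes were called. Lhx2 was higher by 4.35 (adjusted p = 0.0446), but all 4 of its signals lie under 6, and with the floor at 64 the difference was 0 (adjusted p = 1). Pax6 was higher by 1.59 (adjusted p = 0.00264) and Pou3f1 by 1.13 (adjusted p = 0.0376), and Zic2 was lower by -1.29 (adjusted p = 0.0433). With only the groups compared in the fit, none of the 4 factors was called, and the adjusted p of Pax6 was 0.116. Of these only Pax6 was kept in every fit that left out 1 array. Zic2 was kept only without Smad4-null-SB replicate 2, Pou3f1 in 3 of 12 and Lhx2 in 4 of 12 such fits.

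With activin, Pax6 was the 1 factor called between Smad4-null and WT, where 9.29% of genes were called. Its difference was 1.59 (adjusted p = 0.00226), as with SB431542. The call was lost with only the groups compared in the fit. It was also lost with the mean of the Pax6 probe sets, where the difference was 0.52. Hesx1 stood at 1.24 with activin and 1.18 with SB431542, and neither passed (adjusted p = 0.116 and 0.133). Zic2 stood at -0.89 and Zic5 at -0.82 with activin, with adjusted p of 0.126 and 0.13.

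No factor was called between Trim33-KD and WT within a treatment. With SB431542 0% of all genes were called, although 1961 had an unadjusted p under 0.05, and with activin 0.00550% were called, with 1560 at that level. Otx2 was lower by -1.07 with SB431542 (SE 0.18, adjusted p = 0.152) and by -0.84 with activin (SE 0.18, adjusted p = 0.265), and arrays did not overlap in either. Among the upper 50% of genes, 1.15% were called with SB431542 and 0.671% with activin, and Otx2 was called in each (adjusted p = 0.0115 and 0.0448). Pax6 differed by -0.75 and -0.85, also without overlap of arrays. Such separation, in either direction, was common among the factors with 2 arrays per group, so it does not set Otx2 and Pax6 apart. With SB431542 only Pou3f1 had overlapping arrays. With activin only Hesx1, Lhx2 and Sox1 did. The share of all genes with separated arrays was not counted.

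None of the 9 factors was called in the response to 2 h of activin, in any genotype. In WT 0.0330% of genes were called and 731 had an unadjusted p under 0.05. In Smad4-null it was 0.0110% and 1239 genes, and in Trim33-KD 0.0110% and 766 genes. Lefty1, a nodal antagonist and target, was called in WT at 2.81 (adjusted p = 0.0222). Over the 9 factors the median response was 0.24 in WT, 0.14 in Smad4-null and 0.06 in Trim33-KD, against -0.05, 0.06 and -0.05 over all genes.

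Otx2 had activin arrays above SB431542 arrays in every genotype, a pattern whose share over all genes was not counted. In WT its response was 0.58 (SE 0.18, 95% interval 0.17 to 0.996, adjusted p = 0.905, n = 2 per group). In Trim33-KD it was 0.81 (interval 0.40 to 1.23, adjusted p = 0.61) and in Smad4-null 0.14 (interval -0.28 to 0.55, adjusted p = 0.905). The 3 responses were not shown to differ. The Smad4-null response minus that of WT was -0.44 (interval -1.03 to 0.14), and the Trim33-KD response minus that of WT was 0.23 (interval -0.36 to 0.82). No factor was called in either difference of responses; 0% of genes were called in each, with 1317 and 485 at an unadjusted p under 0.05.

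Pax6, the factor with the narrowest error, had responses of 0.04 in WT, 0.05 in Smad4-null and -0.06 in Trim33-KD. Their 95% intervals together ran from -0.42 to 0.41, for the brightest Pax6 probe set only. With the mean of the Pax6 probe sets the Smad4-null response was -0.41. It differed from that of WT by -0.90, so these intervals set no bound for the gene. Pou3f1 responded by 0.11, -0.30 and 0.06, Zic2 by -0.12, 0.28 and -0.33, and Zic5 by 0.28, -0.09 and 0.31 in the same order. For Lhx2 the WT response of 1.75 had an interval from -0.70 to 4.19, so no size could be given. The Six3 probe set 1426638_at had activin arrays above SB431542 arrays in each genotype, with 2.09 in Smad4-null (adjusted p = 0.507 over all probe sets). Most of its signals lie under 6, and the Smad4-null-SB arrays were far apart, at 4.83 and 3.04. The share of all probe sets with this pattern was not counted.

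**Figure D4:**
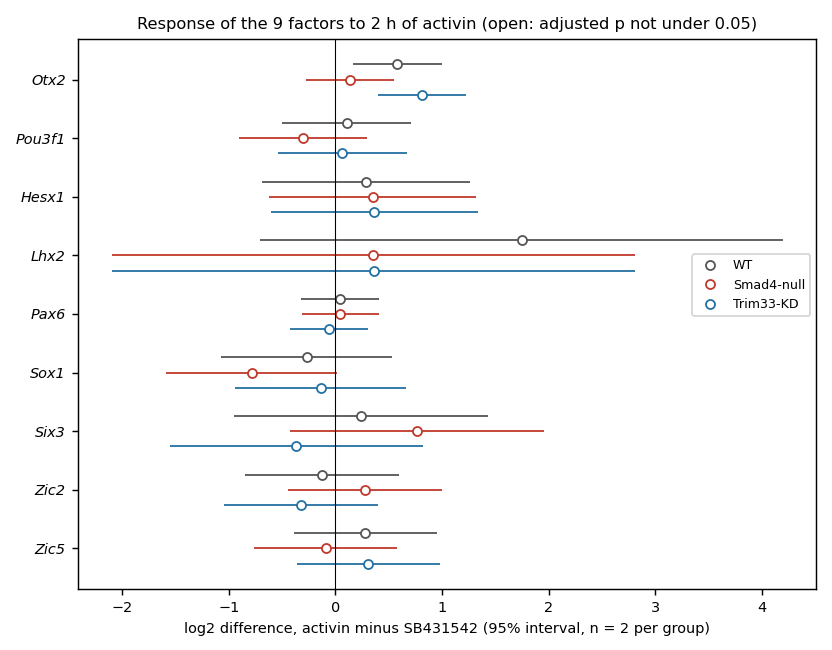
Log2 difference of activin minus SB431542 (x axis, 95% interval, n = 2 per group) for the 9 factors in the 3 genotypes. No point passes limma's adjusted p of 0.05. The intervals of Otx2 in WT (0.17 to 0.996) and Trim33-KD (0.40 to 1.23) lie above 0.

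Zic2 and Zic5 lie side by side near the end of chromosome 14 in the RefSeq gene order (GRCm38.p6), and their neighbours fell with them in Smad4-null. All 12 genes within 10 places that were in the upper 50% by signal were called lower, from -1.49 to -0.39, with a median of -0.83. Of all 9097 genes in that brighter set, 15.3% were called lower by the same test. The differences of Zic2 (-1.09) and Zic5 (-0.64) lie inside that range. Clybl, beside the pair on the near side, stood at -1.34, and Pcca, on the far side, at -0.97. The part that this stretch of the chromosome has in the lower Zic2 signal was not tested. In Trim33-KD the same 12 neighbours had a median of -0.11, and none was called.

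Otx2 lies elsewhere on chromosome 14, and in Smad4-null 11 of its 20 neighbours were called lower and 2 higher, while Otx2 was not called. Of all genes in the brighter set, 15.3% were called lower and 10.1% higher. Those on the far side, from Exoc5 to Pip4p1, were all negative, between -1.31 and -0.36. On the near side the differences were mixed, from -0.74 (Gch1) to 2.09 (Lgals3). The 20 neighbours had a median of -0.53 and a range from -1.31 to 2.09, against 0.20 for Otx2. In Trim33-KD, where Otx2 fell, the same neighbours had a median of -0.07 and none was called. For the factors that rose in Smad4-null the neighbours had medians of 0.11 around Hesx1, 0.00 around Lhx2, 0.02 around Pax6 and 0.03 around Pou3f1. Single neighbours were called around each: 2 lower and 1 higher around Hesx1, around Pax6 and around Pou3f1, and 1 lower around Lhx2. The neighbours ranged from -1.11 to 0.44 around Hesx1, from -0.43 to 0.34 around Lhx2, from -0.96 to 2.09 around Pax6 and from -1.22 to 0.52 around Pou3f1. Around Sox1 the median was 0.02 and around Six3 -0.06.

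**Figure D5:**
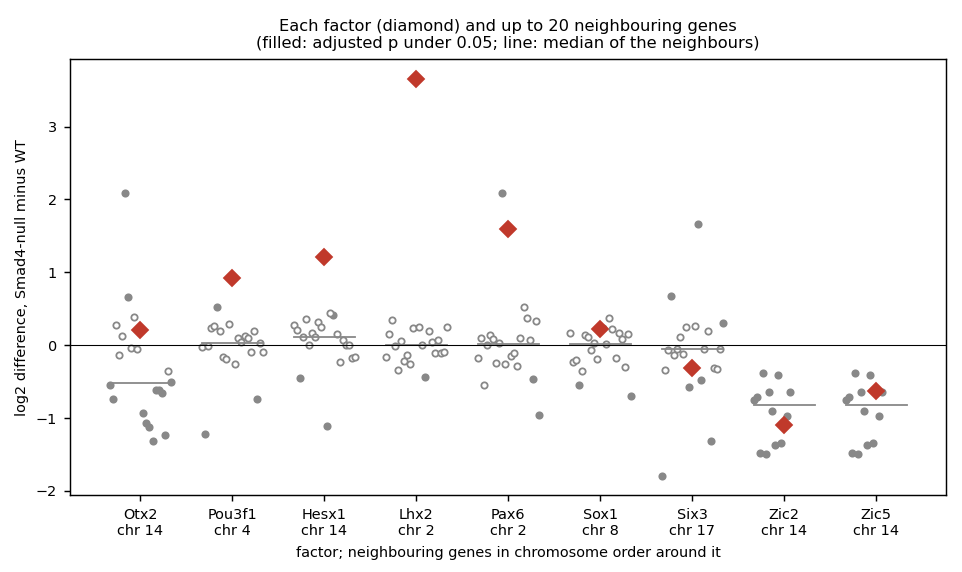
Log2 difference of Smad4-null minus WT (y axis) for each factor (diamonds, all drawn filled) and up to 10 genes on either side in chromosome order (circles, filled where limma's adjusted p is under 0.05; lines are medians). The 12 neighbours of Zic2 and Zic5 all lie below 0, whereas Pou3f1, Hesx1, Lhx2 and Pax6 stand above neighbours whose medians lie between 0.00 and 0.11.

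For the 4 factors in the upper 50% by signal, the genes of most similar pattern were found by Pearson's r over the 12 arrays among 9096 other genes. The arrays share 3 genotypes, so these correlations describe the pattern and carry no test. Otx2 was most like Nxn (0.93), Larp4 (0.91) and Traf6 (0.90). Pou3f1 was most like Hells, a chromatin remodeller (0.97), Cdh1, the epithelial cadherin (0.96), and Tubb2b, a tubulin (0.96). Zic2 was most like Pink1 (0.96), Ypel3 (0.96) and Rnf121 (0.95), and Zic5 most like Atp7a (0.95), Vezf1 (0.94) and Tmem123 (0.93).

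Of 26 further genes of the neural plate 22 were measured, and in Smad4-null 3 were higher and 1 lower, with a median of 0.16, where 18.4% of all genes were called. The higher ones were Irx3 (1.59), a patterning homeobox factor, Sox2 (0.49), a SoxB1 factor shared with pluripotent cells, and Six6 (0.52), an eye-field factor. The lower one was Nes (-1.68), the intermediate filament of neural progenitors. In Trim33-KD none of the 22 was called against WT, and the median was -0.25. Against Smad4-null, Irx3 (-1.52), Six6 (-0.91), Gbx2 (-0.89) and Sox2 (-0.42) were lower in Trim33-KD and Nes (1.54) was higher.

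The primed epiblast list, of which Fgf5 is the classical marker, moved in both directions in Smad4-null, where 7.12% of all genes were called higher and 11.3% lower. Of 10 genes, 2 were higher, Utf1 (0.82) and Dnmt3a (0.46), and 5 lower: Fgf5 (-1.43), Sall2 (-1.30), Tdgf1 (-0.70), Pim2 (-0.60) and Nodal (-0.59). Of 13 naive pluripotency genes 9 were higher, led by Nr0b1 (1.71), Fgf4 (1.56), Klf4 (1.52) and Prdm14 (1.40), and Klf5 (-0.56) and Nanog (-0.38) were lower; the median was 1.26. Of 11 measured genes of the primitive streak 10 were lower, led by Gsc (-4.38), Mixl1 (-4.26), Evx1 (-4.23) and Lhx1 (-3.84), with a median of -3.53. Of 11 secreted antagonists of nodal, BMP and Wnt, 6 were lower, led by Fst (-4.72), Cer1 (-3.42), Frzb (-2.62) and Dkk1 (-1.94), and Lefty1 (1.32) and Sfrp1 (1.18) were higher. In Trim33-KD none of the naive, primed or primitive streak genes was called against WT, and of the antagonists Lefty2 was higher (0.78).

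Markers of other cell types were read beside these values, as signals summed on the linear scale, which follow the brightest markers. Of 6 neuronal markers Dcx and Snap25 had mean signals under 6, and the summed signal of the list was 11.87 to 11.95 in WT, 11.98 to 12.05 in Smad4-null and 12.19 to 12.53 in Trim33-KD. Of 8 markers of visceral and parietal endoderm Sox7, Afp, Ttr and Apoa1 were under 6, with sums of 11.5 to 11.8 in WT, 11.1 to 11.4 in Smad4-null and 11.4 to 12.1 in Trim33-KD. Of 7 markers of surface ectoderm and placode Dlx3 and Dlx5 were under 6, and the sum was 11.8 to 12.2 in WT, 11.6 to 11.8 in Smad4-null and 12.2 to 13.4 in Trim33-KD. Of 6 fibroblast markers Col1a1, Col3a1, Postn and Lum were under 6, with sums of 8.85 to 9.25 in WT, 8.27 to 8.64 in Smad4-null and 8.88 to 9.10 in Trim33-KD. Of 5 trophoblast markers Elf5 and Psg17 were under 6, with sums of 9.76 to 10.07 in WT, 9.88 to 10.28 in Smad4-null and 9.85 to 10.22 in Trim33-KD. In Smad4-null minus WT 1 neuronal marker was called higher and 2 lower, 2 endoderm and 2 fibroblast markers were called lower, 2 of surface ectoderm higher and 0 of trophoblast. Of the 6 markers of embryonic stem cells and epiblast, 2 were called higher and 2 lower there, where 18.4% of all genes were called. In Trim33-KD minus WT 1 neuronal marker was called higher and 1 lower, and 0 of the other lists. The part of these cell types in the raised factors of Smad4-null, or in the lower Otx2 and Pax6 signals of Trim33-KD, was not tested.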

How the data were processed

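Total RNA of 12 embryoid body samples was measured on Affymetrix arrays, 1 array per sample. Signal per probe set was deposited by the authors on a log2 scale. Back on the linear scale, the mean once 2% is trimmed at each end was about 498, averaged over the arrays. The submitters' processing notes name limma; its role and the summarization method are not given in the sources used here. Arrays have no sequencing depth, and their number limits the precision.

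Of 45101 probe sets 64 are controls, and 34945 carry a single gene symbol in the platform table. The probe set with the highest mean stood for each of 18193 genes. A means model of all 6 groups was fitted to all arrays with limma 3.58.1 (lmFit, eBayes) in R 4.3.3, with 6 residual degrees of freedom, and p-values were adjusted by Benjamini-Hochberg over all genes or, for single probe sets, over all probe sets. The 12 comparisons were the genotype differences over both treatments and within each, the activin responses, and their differences from WT. Comparisons that share a group are not independent.

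All 9 members were named with all their probe sets. Of each further list up to 4 called genes were named by size, and neighbours and similar genes came from the upper 50% of genes by signal. Sox2 against Smad4-null, Dnmt3a, Pim2, Nodal, Klf5, Nanog, Lefty1, Sfrp1, Clybl and Pcca were named beyond this rule, after their values were seen. Members and lists were chosen with earlier results of these data known. Alternatives covered scaling, filters, a floor, probe set choice, the prior, array weights, samples in the fit, a replicate block, and leaving out arrays. The fit was tested on simulated data. Python 3.11.15 with matplotlib 3.10.9 drew the figures. Promoter windows came from RefSeq. Probe sets that the platform table gives to several genes were not read for any member.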

Additional observations from a re-analysis of the deposited data

Results flagged for a closer look

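In 3 of the 19 probe sets, all dim, the activin arrays were all above the SB431542 arrays in 1 genotype and all below them in another. Of all 45037 probe sets 6775 (15.04%) did so. The Pax6 probe set 1425960_s_at had an activin minus SB431542 difference of -1.75 in Smad4-null and 1.17 in Trim33-KD. The Sox1 probe set 1438729_at had -0.47 in Smad4-null and 3.07 in Trim33-KD. For these 2 the difference between the genotypes was not tested. The Six3 probe set 1426637_a_at had -0.98 in WT and 0.80 in Smad4-null, and the difference of 1.78 (SE 0.67, 95% interval 0.22 to 3.33) did not pass limma's test (adjusted p = 0.698 over all probe sets). The brightest Pax6 probe set, with responses of 0.05 in Smad4-null and -0.06 in Trim33-KD, had overlapping arrays in both.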

How the results depend on the processing

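All 15 called differences kept their sign in every setting, apart from Lhx2 with SB431542, which came to 0 with values floored at 64. Of 93 differences that were not called, 41 changed sign somewhere and 15 were called somewhere. Six3 in Trim33-KD minus WT turned to 0.035, and with activin to 0.073, with the mean of its probe sets. Median centring moved the median over all genes from -0.03 to 0.12 in Smad4-null minus WT and from -0.12 to 0.08 with SB431542.

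Only Otx2, Pou3f1, Zic2 and Zic5 entered the upper 50% of genes, so the other 5 factors were not tested there. Between Smad4-null and WT with activin, Pou3f1, Zic2 and Zic5 were called in that set, and Pax6 was called over all genes. Counts of called factors moved as follows. In Smad4-null minus WT the 5 became 3 in the upper 50% of genes, 3 with the floor, 2 without both arrays of narrow spread, and 4 to 6 without a single array. In Trim33-KD minus WT the 2 became 1 in the upper 50%, with the mean of probe sets and with array weights, 0 with only the groups compared, without both arrays of narrow spread and over all probe sets, and 0 to 2 without a single array. In Trim33-KD minus Smad4-null the 3 became 5 with median centring and 6 with a trended and robust prior, 2 with the floor, and 3 to 4 without a single array. With SB431542 the 4 of Smad4-null minus WT became 2 in the upper 50%, with the floor, the mean of probe sets, array weights and all probe sets, 0 with only the groups compared, 1 without both arrays of narrow spread, and 1 to 2 without a single array. With activin the 1 became 3 in the upper 50%, 4 with a trended and robust prior, 0 with only the groups compared, 2 without both arrays of narrow spread and over all probe sets, and 1 to 2 without a single array. For Trim33-KD minus WT within either treatment 0 became 1 in the upper 50% and with a trended and robust prior. With activin the count stayed at 1 with the mean of probe sets, but the factor called there was not Pax6. The causes were not tested.

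Arrays were not treated as paired by their replicate numbers: differences of replicate 1 minus 2 correlated between groups by -0.30 to 0.39 over 15 pairs of groups. With a replicate block the count was 1 in Trim33-KD minus WT (Otx2 had an adjusted p of 0.0502), 2 in Smad4-null minus WT with SB431542 and 2 with activin.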
